A study of Homo sapiens with 12 samples.

Results

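The 10 genes described here encode AP-1 and immediate early transcription factors. They are FOS, FOSB, FOSL1 and FOSL2 of the FOS family, JUN, JUNB and JUND of the JUN family, and EGR1, IER2 and MAFF. They were chosen by gene symbol from the 14866 genes of each expression table, and all 10 were among the 13502 genes tested. RNA had been sequenced from SHI-1 cells, an acute myeloid leukemia (AML) cell line that carries the MLL-AF6 fusion, after 16 h of drug exposure. The 4 groups of 3 libraries received DMSO, disulfiram (DSF, 0.3 µM with 1 µM copper), niclosamide (NSM, 5 µM) or both drugs (DSF+NSM), and the 3 libraries of a group came from independent experiments. The sources used here do not state whether the DMSO and NSM cultures also received copper, and the labels and the supplementary methods name different culture media. A single cell line was used, so the values describe SHI-1 cells only.

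AP-1 is a dimer of basic leucine zipper (bZIP) proteins. JUN proteins pair with each other or with FOS proteins, FOS proteins need a JUN partner, and the dimers bind a short palindrome called the TPA response element or the closely related cyclic AMP response element. Immediate early genes such as FOS, JUN and EGR1 are transcribed within minutes of a signal, from factors already present in the cell, and MAP kinases are the best known route to them. Their mRNAs are short-lived and their products induce phosphatases and repressors that end the response. JUND is the JUN family member most often present at high level in resting cells.

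The promoters of these genes were searched for short binding motifs near the start. RefSeq promoter windows of 300 bases, from 250 before to 50 after the start of transcription, were found for 9 of the 10 genes (GRCh38), with FOSL1 missing. In each of the following stretches of 150 bases, the capitals mark the motif searched, and no base belongs to an annotated exon. EGR1 is shown for its CArG boxes, the sites of serum response factor. JUN and JUND are shown for the element variants TGACATCA and TGACGTCA, which AP-1 and CREB/ATF dimers can bind. FOS, FOSB and JUNB are shown for the TATAAA box at which the transcription machinery assembles.
EGR1: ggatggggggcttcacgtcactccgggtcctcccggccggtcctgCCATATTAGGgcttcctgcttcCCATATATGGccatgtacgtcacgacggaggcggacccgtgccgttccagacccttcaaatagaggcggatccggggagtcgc
JUN: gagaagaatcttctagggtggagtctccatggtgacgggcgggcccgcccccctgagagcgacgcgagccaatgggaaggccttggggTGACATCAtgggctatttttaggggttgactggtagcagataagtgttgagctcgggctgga
JUND: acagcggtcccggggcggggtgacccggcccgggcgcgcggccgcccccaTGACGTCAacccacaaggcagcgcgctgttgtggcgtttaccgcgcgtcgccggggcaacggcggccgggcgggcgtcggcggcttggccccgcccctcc
FOS: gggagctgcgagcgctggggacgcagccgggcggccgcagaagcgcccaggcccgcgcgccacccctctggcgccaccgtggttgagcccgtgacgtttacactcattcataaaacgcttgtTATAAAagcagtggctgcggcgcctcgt
FOSB: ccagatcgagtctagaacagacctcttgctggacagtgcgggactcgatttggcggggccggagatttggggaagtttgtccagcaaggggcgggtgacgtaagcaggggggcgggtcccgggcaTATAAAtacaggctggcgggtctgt
JUNB: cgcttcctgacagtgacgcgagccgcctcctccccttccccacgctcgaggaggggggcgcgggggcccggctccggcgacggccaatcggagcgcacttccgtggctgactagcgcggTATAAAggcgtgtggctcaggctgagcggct

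These stretches lie at chr5:138465329-138465478 on the plus strand for EGR1, chr1:58784053-58784202 on the minus strand for JUN, chr19:18281723-18281872 on the minus strand for JUND, chr14:75278673-75278822 on the plus strand for FOS, chr19:45467841-45467990 on the plus strand for FOSB and chr19:12791336-12791485 on the plus strand for JUNB. The 2 CArG boxes in the EGR1 window begin 105 and 83 bases before its start, and 1.29% of all 35116 promoter windows held such a box on either strand. The element of JUN begins 67 bases before its start, and TGACATCA occurred in 2.61% of all windows. TGACGTCA was found 200 bases before the start of JUND and 54 bases before that of MAFF, and in 1.85% of all windows. The TATAAA boxes of FOS, JUNB and FOSB begin 33, 31 and 30 bases before the start, and 11.5% of all windows held one. The AP-1 element TGANTCA, where N is any base, occurred in the FOSL2 window alone among these genes, 4 bases after the start, and in 7.71% of all windows. The RefSeq starts used for the MAFF and FOSL2 matches lie inside the GENCODE spans given below for these genes, not at their first base. The EGR element GCGNGGGCG occurred in the EGR1 window alone among them, 198 bases before its start, and in 9.43% of all windows. A match says only that the letters are there. Bases further than 250 before the start were not searched, so a motif not listed for a gene may lie outside its window.

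The values are normalized counts, that is, the authors' estimated read counts divided by a factor for each library, and the lowest values rise in steps from which the depth of a library was estimated at 10.2 to 19.0 M reads. The member with the lowest value in any library, FOSB in a DMSO library, still stood at about 31.4 such steps. Normalized counts summed to 13.96 to 14.4 M for libraries with DMSO, 14.9 to 15.3 M with DSF, 16.5 to 17.5 M with NSM and 22.7 to 25.6 M with both drugs, so that the scale between libraries matters most for the combination. Genes of nuclear rRNA held a mean share of 2.05%, 4.23%, 2.38% and 7.30% of these sums, and their part in the results was not tested. Replicate 3 of NSM stood apart from its group, with Spearman correlations of 0.952 and 0.959 to the other two NSM libraries, against 0.981 to 0.996 for all other pairs within a group, and where leaving it out changed a call or moved a log2 value of the 10 genes by over 1.5 times, both values are given. All 9 monocytic and myeloid markers were listed and none was at 0. Their summed normalized count was 63927 to 73297 in DMSO, 43347 to 49567 with DSF, 31165 to 35849 with NSM and 32249 to 33542 with both drugs, and their part in the results below was not tested. Most of this sum was MPO, the granule enzyme myeloperoxidase, with means of 58058 in DMSO, 31892 with DSF, 16981 with NSM and 21249 with both drugs. Over the 9 markers, 3 were called higher and 1 lower after DSF, 5 and 3 after NSM, and 3 and 2 after DSF+NSM. Of all genes tested, 11.9% were called higher and 5.95% lower after DSF, 25.4% and 23.7% after NSM, and 28.3% and 24.5% after DSF+NSM. Equal sums gave 1 marker higher and 6 lower after DSF+NSM, beside 11.4% and 56.2% of all genes. CD14, ITGAM and CD68 were the 3 higher genes after DSF, and they were named after their values were seen. Of the other markers, 1 was lower after DSF and 5 were not called. Of 10 markers of other cell types 6 were listed, with MS4A1 of B cells at 0 in all libraries, and their sum was 961 to 1040, 1340 to 1445, 681 to 744 and 651 to 880 in the same order. Most of it was PECAM1, with means of 887 in DMSO and 476 in DSF+NSM, whereas CD3E at 1.16 and COL1A1 at 2.12 were called higher for DSF+NSM on the log2 scale (adjusted p from limma 0.000528 and 0.000499).

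Against DMSO, all 10 genes were higher after DSF+NSM, 9 after DSF and 7 after NSM, and none was lower. Calls rest on limma, fitted to log2(normalized count + 1) of all 12 libraries, with a Benjamini-Hochberg adjusted p under 0.05, and 28.3%, 11.9% and 25.4% of all genes tested were called higher in the same comparisons. The median log2 fold change of the 10 genes was 3.22 for DSF+NSM, 1.45 for DSF and 1.03 for NSM, against medians over all genes of 0.03, 0.05 and 0.01. The 3 treated libraries lay above all 3 DMSO libraries for 10, 10 and 7 of the genes, which was so for 36.4%, 33.4% and 29.1% of all genes tested. The comparisons share their DMSO libraries. Because RNA came from whole cultures, more transcribing cells and more transcript per cell cannot be told apart. Scaling every library to the same sum moved the median of all genes to −0.74 for DSF+NSM, −0.05 for DSF and −0.25 for NSM. With that scaling 10, 7 and 6 of these genes were called higher, beside 11.4%, 8.95% and 16.4% of all genes, and none was called lower. Their medians were then 2.44, 1.35 and 0.76, and the smallest changes for DSF+NSM were 0.82 for IER2 and 0.88 for FOSL2.

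**Figure D1:**
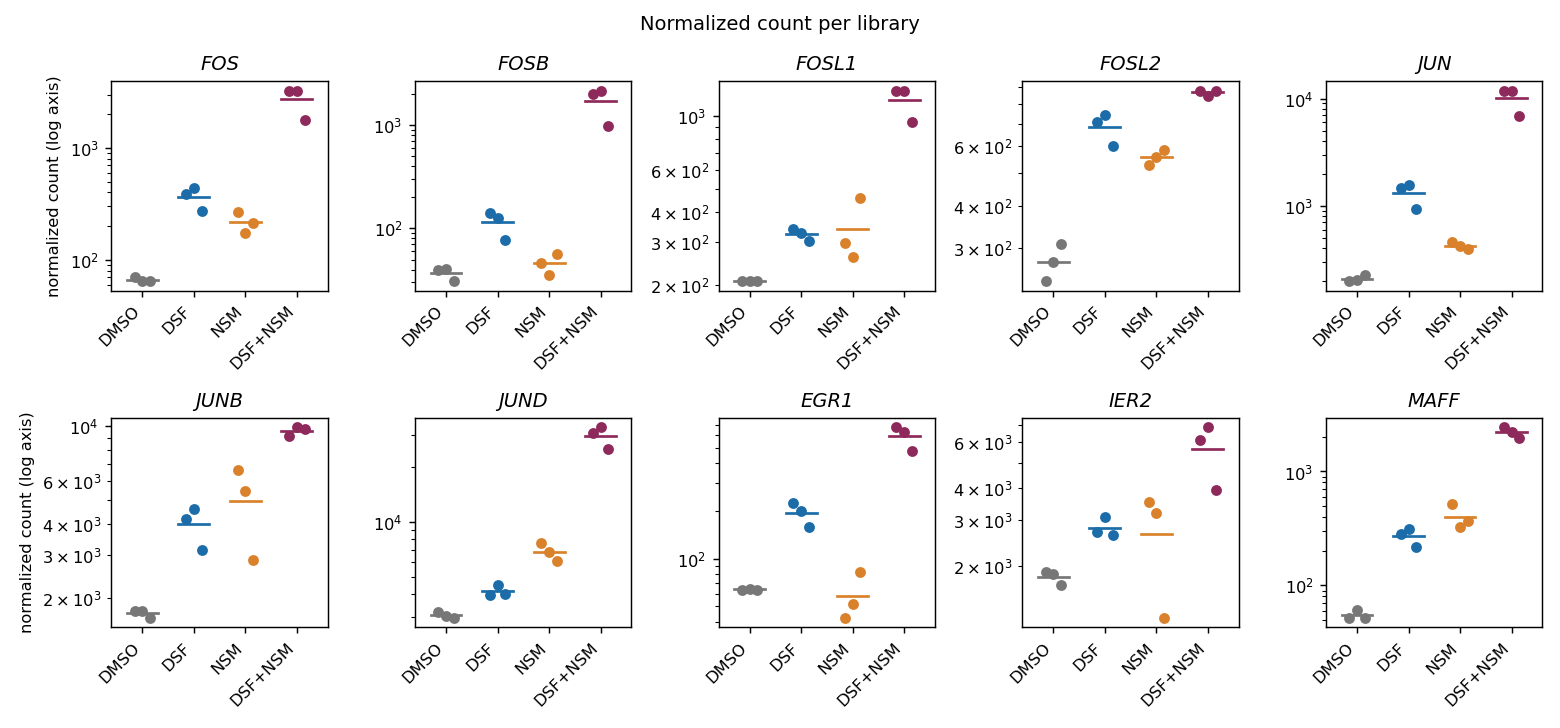
Normalized count (log axis) of the 10 genes in each of the 12 libraries, by group. Points are libraries in the order of replicates 1 to 3 and bars are group means. The DSF+NSM libraries are above all other libraries for every gene, from 848 to 877 for FOSL2 to 24976 to 33001 for JUND.

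FOS, the founding member of its family and the classical serum-responsive gene, lies at chr14:75278826-75282230 (GRCh38, plus strand, GENCODE 44). Its normalized counts were 69.8, 64.2 and 64.7 in DMSO, 387, 442 and 273 with DSF, 268, 172 and 215 with NSM, and 3235, 3264 and 1794 with both drugs. Every treated group lay above DMSO, and the combination lay above both single drugs with no overlap. The log2 fold change of FOS against DMSO was 2.43 with DSF (SE 0.26, adjusted p = 6.06e-05 from limma), 1.68 with NSM (adjusted p = 0.000191) and 5.31 with both drugs (adjusted p = 1.55e-08). FOSB, at chr19:45467995-45475179 on the plus strand, encodes a close relative of FOS that is known for a short, long-lived splice form, which counts per gene do not separate. The FOSB counts were 39.9, 40.6 and 30.8 in DMSO, 142, 126 and 77.1 with DSF, 46.2, 35.2 and 56.5 with NSM, and 1982, 2159 and 974 with both drugs. The NSM libraries overlapped those of DMSO, and the mean in DSF+NSM was 45.9 times that in DMSO. FOSB changed by 1.57 with DSF (SE 0.32, adjusted p = 0.00600 from limma) and by 5.41 with both drugs (adjusted p = 7.63e-08). For NSM its difference was 0.29 (adjusted p = 0.481 from limma), 2 SE on either side span −0.35 to 0.93, and without NSM replicate 3 it was 0.13.

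FOSL1 and FOSL2, which encode FRA-1 and FRA-2, lack the strong activation domain of FOS and are typically the later members of the family to rise. FOSL1, at chr11:65892049-65900573 on the minus strand, had counts of 208, 207 and 208 in DMSO, 342, 328 and 305 with DSF, 297, 262 and 459 with NSM, and 1273, 1269 and 946 with both drugs. The groups did not overlap with DMSO, and NSM replicate 3 was the highest library with a single drug. Its log2 fold change was 0.64 with DSF (SE 0.20, adjusted p = 0.0436 from limma), 0.66 with NSM (adjusted p = 0.0152) and 2.47 with both drugs (adjusted p = 9.66e-07). The call for DSF was lost when any of 8 libraries was left out, each DMSO, each DSF and DSF+NSM replicate 1 or 2, with adjusted p from limma between 0.0576 and 0.135, and also with equal sums (0.0602), the median of ratios (0.0629) and a replicate block (0.0570). The call for NSM was lost with equal sums, at 0.40 (adjusted p = 0.0959 from limma), and with only the DMSO and NSM libraries in the fit (0.0670), and the change was 0.42 without NSM replicate 3 (0.0157). FOSL2, at chr2:28392448-28417317 on the plus strand, had counts of 239, 273 and 308 in DMSO, 708, 744 and 603 with DSF, 529, 557 and 585 with NSM, and 872, 848 and 877 with both drugs. It was the member with the smallest distance between the combination and DSF. FOSL2 rose by 1.32 with DSF (SE 0.14, adjusted p = 5.32e-05 from limma), 1.03 with NSM (adjusted p = 7.06e-05) and 1.67 with both drugs (adjusted p = 1.10e-06).

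JUN, the partner with the strongest activation domain and a target of JNK kinases, lies at chr1:58776845-58784048 on the minus strand. Its counts were 198, 204 and 225 in DMSO, 1471, 1568 and 938 with DSF, 463, 420 and 394 with NSM, and 11805, 11875 and 6948 with both drugs. The 4 groups were fully separated, in the order DMSO, NSM, DSF and DSF+NSM. JUN rose by 2.63 on the log2 scale with DSF (SE 0.23, adjusted p = 1.17e-05 from limma), 1.02 with NSM (adjusted p = 0.00261) and 5.56 with both drugs (adjusted p = 3.05e-09), and the mean in DSF+NSM was 48.8 times that in DMSO. Ranked by log2 fold change for DSF+NSM, JUN stood at place 82 of the 13502 genes tested, FOSB at 94, MAFF at 104 and FOS at 106.

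JUNB, which can restrain the transforming activity of JUN, is a gene of a single exon at chr19:12791486-12793315 on the plus strand. It shares 259 exon bases with HOOK2 on the opposite strand. The library preparation is described with random primed cDNA and without a step that keeps the strand. Reads over bases shared by genes of opposite strands may therefore come from either gene. JUNB counts were 1764, 1771 and 1660 in DMSO, 4206, 4616 and 3144 with DSF, 6626, 5476 and 2849 with NSM, and 9173, 9914 and 9719 with both drugs. Replicate 3 of NSM was lower than every DSF library but above all DMSO libraries. The log2 fold change was 1.19 with DSF (SE 0.25, adjusted p = 0.00692 from limma), 1.44 with NSM (adjusted p = 0.000473) and 2.47 with both drugs (adjusted p = 5.40e-06). Without NSM replicate 3, that for NSM was 1.80 (adjusted p = 4.41e-08 from limma).

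JUND, the JUN protein abundant in resting cells, is a gene of a single exon at chr19:18279694-18281622 on the minus strand. JUND counts were 3195, 3050 and 2967 in DMSO, 3985, 4509 and 4007 with DSF, 7656, 6790 and 6118 with NSM, and 30763, 33001 and 24976 with both drugs. The 4 groups were again fully separated, here in the order DMSO, DSF, NSM and DSF+NSM. JUND rose by 0.44 with DSF (SE 0.13, adjusted p = 0.0336 from limma), 1.15 with NSM (adjusted p = 1.81e-05) and 3.26 with both drugs (adjusted p = 2.54e-09). Its call for DSF was lost without any 1 of the 3 DMSO or 3 DSF libraries (adjusted p from limma 0.0633 to 0.151) and with equal sums (0.0532).

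**Figure D2:**
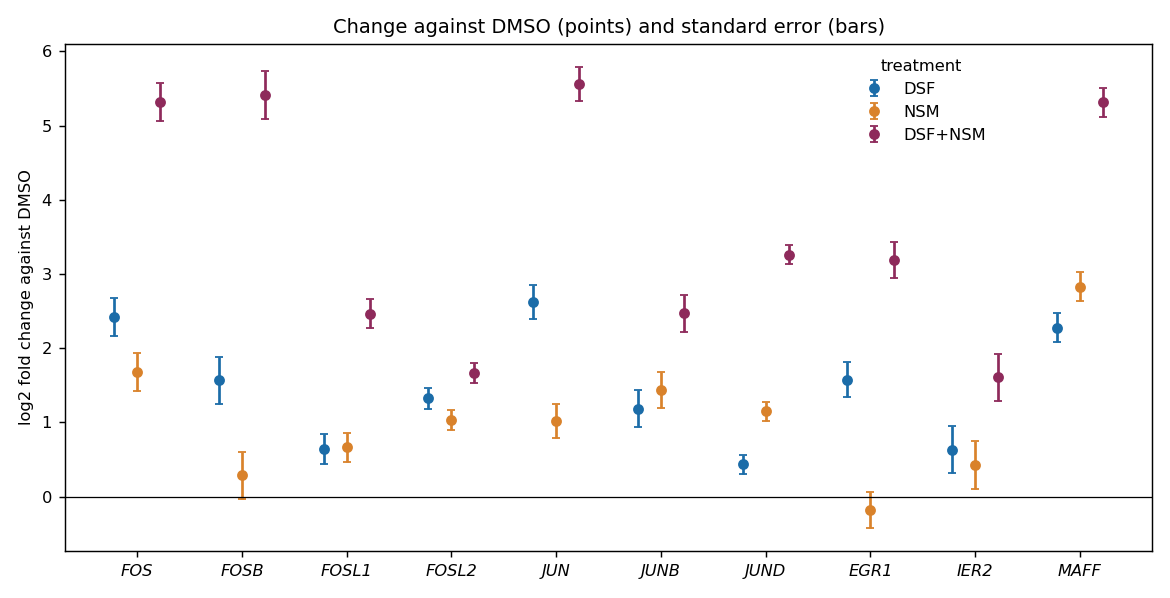
Log2 fold change against DMSO (points, y axis) with its standard error (bars) for the 10 genes and 3 treatments, from limma. The DSF+NSM change is the largest of the 3 for every gene, from 1.61 for IER2 to 5.56 for JUN, and the NSM points of FOSB, EGR1 and IER2 and the DSF point of IER2 were not called.

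EGR1, a zinc finger factor induced through serum response factor and ELK proteins, lies at chr5:138465479-138469303 on the plus strand. Its counts were 63.6, 64.2 and 63.7 in DMSO, 223, 201 and 159 with DSF, 42.2, 51.4 and 81.8 with NSM, and 676, 633 and 482 with both drugs. DSF and DSF+NSM lay above DMSO without overlap, whereas 2 NSM libraries were below and replicate 3 above the DMSO range. EGR1 rose by 1.58 with DSF (SE 0.24, adjusted p = 0.000995 from limma) and by 3.19 with both drugs (adjusted p = 5.19e-07). For NSM its difference was −0.18 (adjusted p = 0.557 from limma), 2 SE on either side span −0.66 to 0.30, and without NSM replicate 3 it was −0.45 (adjusted p = 0.0535). Weighting each library by its own spread gave −0.31 for NSM, which was called lower (adjusted p = 0.00141 from limma). That weighting called 82.3% of all genes for NSM against DMSO in either direction, beside 49.1% in the main fit.

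IER2, a small nuclear protein of the early response that has no DNA-binding domain of the AP-1 kind, lies at chr19:13150411-13154911 on the plus strand and shares 662 and 946 exon bases with 2 long noncoding RNAs of the opposite strand. IER2 counts were 1882, 1854 and 1679 in DMSO, 2706, 3078 and 2638 with DSF, 3534, 3191 and 1256 with NSM, and 6130, 6861 and 3940 with both drugs. Both other NSM libraries were above all DSF libraries, and NSM replicate 3 was the lowest library of all. IER2 rose by 1.61 for DSF+NSM (SE 0.32, adjusted p = 0.00112 from limma). Neither its difference of 0.64 with DSF (adjusted p = 0.192 from limma) nor that of 0.42 with NSM (adjusted p = 0.293) was called. Without NSM replicate 3 both were called, at 0.64 (adjusted p = 0.00534 from limma) and 0.90 (adjusted p = 0.000530).

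MAFF encodes a small MAF protein, which carries a bZIP domain but no activation domain and works as a partner of other bZIP proteins. It lies at chr22:38200767-38216507 on the plus strand and shares 326 exon bases with PLA2G6 on the opposite strand. MAFF counts were 51.7, 60.3 and 51.8 in DMSO, 281, 311 and 219 with DSF, 513, 325 and 364 with NSM, and 2444, 2217 and 1973 with both drugs. The 4 groups were fully separated, in the same order as for JUND. MAFF had the largest change of the 10 genes for NSM, at 2.83 (SE 0.20, adjusted p = 6.22e-07 from limma), beside 2.28 with DSF (adjusted p = 1.17e-05) and 5.31 with both drugs (adjusted p = 1.51e-09). Replicate 3 was the lowest library of its group for 9 of the 10 genes in DSF and for 8 in DSF+NSM. How often this was so over all genes tested was not counted, so it is not read as a trait of these genes. Without DSF+NSM replicate 3, all 10 genes were still called higher for DSF+NSM against DMSO.

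Compared directly with DSF, the combination was higher for 9 of the 10 genes, beside 21.7% of all genes tested, with a median log2 fold change of 2.32. Compared with NSM it was higher for all 10, beside 20.3% of all genes, with a median of 2.29. All 3 DSF+NSM libraries lay above all 3 libraries of either drug for every member, which was so for 31.2% of all genes against DSF and 22.2% against NSM. Against DSF, the largest difference was that of FOSB, at 3.84 (SE 0.32, adjusted p = 3.15e-06 from limma). It was followed by MAFF at 3.04, JUN at 2.94, FOS at 2.88 and JUND at 2.82. FOSL2 differed from DSF by 0.34 (adjusted p = 0.0601 from limma), and 2 SE on either side span 0.07 to 0.62. Against NSM, FOSB was again first at 5.12 (SE 0.32, adjusted p = 3.17e-07 from limma), followed by JUN at 4.54, FOS at 3.63 and EGR1 at 3.37. FOSL2 at 0.64 (adjusted p = 0.00323 from limma), JUNB at 1.03 (adjusted p = 0.00608) and IER2 at 1.18 (adjusted p = 0.0118) were the smallest differences from NSM. Without NSM replicate 3 they were 0.67 for FOSL2, 0.67 for JUNB and 0.71 for IER2, all still called.

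These direct comparisons depended on scale for the members with small differences. With every library scaled to the same sum, which moved the median of all genes to −0.67 against DSF and −0.48 against NSM, 7 members were called higher in either comparison and none lower, beside 7.30% and 9.82% of all genes. JUNB at 0.60 (adjusted p = 0.0570 from limma) and IER2 at 0.29 (adjusted p = 0.447) were then not called against DSF. FOSL2 was then lower than in DSF by −0.34, again without a call (adjusted p = 0.0551 from limma). Against NSM, FOSL2 at 0.12, JUNB at 0.52 and IER2 at 0.67 were not called with equal sums (adjusted p from limma 0.497, 0.103 and 0.0888). IER2 against DSF was also lost without DSF replicate 1 or 3 or DSF+NSM replicate 1 or 2 (adjusted p from limma 0.0722 to 0.103), and IER2 against NSM without DSF+NSM replicate 2 (0.0560) and with only the groups compared (0.0770). Leaving out NSM replicate 3 gave a call for FOSL2 against DSF (0.34, adjusted p = 0.0161 from limma).

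The interaction is the log2 change for DSF+NSM minus the sum of the changes for each drug, so that 0 stands for fold changes that multiply. It was called for 7 of the 10 genes, 6 above and 1 below 0, beside 12.1% of all genes above and 14% below. FOSB had the largest interaction, at 3.56 (SE 0.45, adjusted p = 0.000216 from limma), since its single-drug changes add to 1.85 and its combined change was 5.41. JUN at 1.92 (adjusted p = 0.00111 from limma), EGR1 at 1.79 (adjusted p = 0.00239), JUND at 1.67 (adjusted p = 9.73e-05), FOS at 1.20 (adjusted p = 0.0278) and FOSL1 at 1.16 (adjusted p = 0.00974) were also above 0. FOSL2 was below 0 at −0.69 (adjusted p = 0.0205 from limma), with a combined change of 1.67 against a sum of 2.35. JUNB at −0.15 (adjusted p = 0.780 from limma), IER2 at 0.55 (adjusted p = 0.405) and MAFF at 0.21 (adjusted p = 0.616) were not called, and 2 SE on either side span −0.85 to 0.55, −0.36 to 1.45 and −0.34 to 0.76. Weighting each library by its own spread, under which 66.2% of all genes had a called interaction, gave calls for all 3, at −0.43, 0.35 and 0.55 (adjusted p from limma 0.00485, 0.0142 and 0.00375). The MAFF interaction was −0.21 with equal sums, and that of IER2 was 0.07 without NSM replicate 3, neither of them called. FOS lost its call without any of 7 libraries (adjusted p from limma 0.0524 to 0.0780): each DMSO library, DSF replicate 3, NSM replicate 2, and DSF+NSM replicate 1 or 2. FOSL2 lost its call without DMSO replicate 1, DSF replicate 1 or 2, or DSF+NSM replicate 2 (0.05 to 0.0624). With NSM replicate 3 left out, JUNB was called below 0, at −0.51 (adjusted p = 0.0292 from limma). With equal sums the median interaction of all genes moved to −0.40, and 5 members were called above 0 (6.78% of all genes) and FOSL2 below it, at −1.10, while FOS at 0.78 was not called (adjusted p = 0.0867 from limma).

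**Figure D3:**
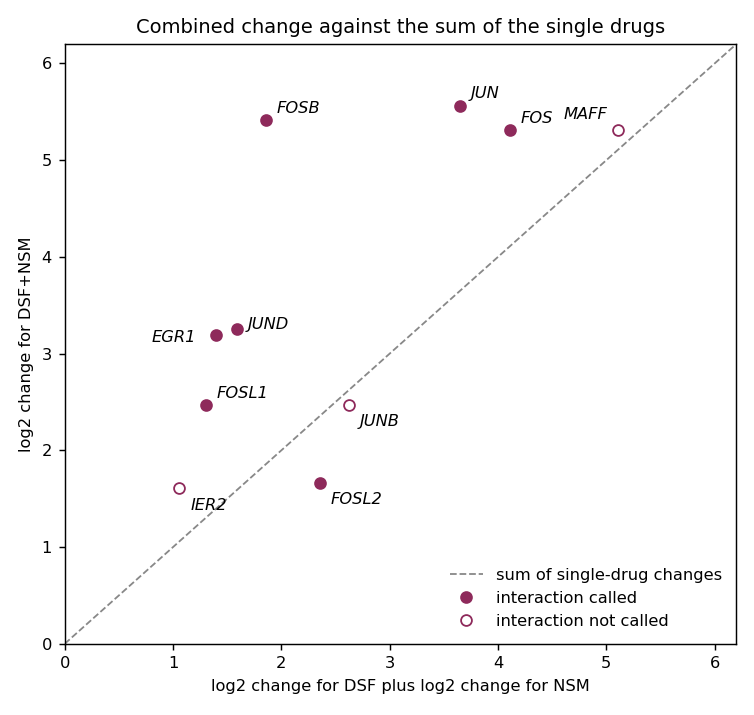
Log2 change for DSF+NSM against DMSO (y axis) over the sum of the log2 changes for DSF and NSM (x axis) for the 10 genes. The dashed line marks equality, filled points had a called interaction, and FOSB lies furthest above the line (5.41 over 1.85) while FOSL2 lies below it (1.67 over 2.35).

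Divided by the length of the canonical transcript, the normalized counts can be compared between genes. In DMSO the order per kilobase was JUND at 1592 ± 59.9 (SD, n = 3), JUNB at 946 ± 34.1, IER2 at 855 ± 52.1, FOSL1 at 122 ± 0.281, JUN at 64.2 ± 4.44, FOSL2 at 40.7 ± 5.12, FOS at 31.5 ± 1.47, MAFF at 23.0 ± 2.08, EGR1 at 20.4 ± 0.103 and FOSB at 9.83 ± 1.45. No neighbours in this order overlapped between their libraries. In DSF+NSM it was JUND at 15335 ± 2147, JUNB at 5247 ± 210, JUN at 3135 ± 867, IER2 at 2675 ± 720, FOS at 1314 ± 400, MAFF at 931 ± 99.3, FOSL1 at 683 ± 110.0, FOSB at 452 ± 169, EGR1 at 190 ± 32.5 and FOSL2 at 129 ± 2.32. JUN thus moved from place 5 to 3, FOS from 7 to 5 and FOSL2 from 6 to 10, where FOSL2 was below all EGR1 libraries. The libraries of JUN and IER2, FOS and MAFF, and FOSL1 and FOSB overlapped in DSF+NSM, so the order within these pairs is not separated from their spread. In DSF, JUNB and JUND overlapped at the top of the order, as did the neighbours among FOSL1, FOS, MAFF and FOSL2. In NSM, 7 of the 9 pairs of neighbours overlapped, all but IER2 with FOSL1 and FOSL2 with EGR1.

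The makeup of each family is a share within a library and does not depend on how libraries are scaled. Of the summed FOS family per kilobase, FOSL1 held 59.8% ± 0.823 (SD, n = 3) in DMSO, 38.7% ± 3.82 with DSF, 49.4% ± 6.61 with NSM and 27.1% ± 3.35 with both drugs. FOS held 15.4% ± 0.880 in DMSO, 34.7% ± 3.75 with DSF, 26.3% ± 5.55 with NSM and 50.5% ± 2.67 with both drugs. FOSL1 was therefore the most abundant family member in DMSO and FOS in DSF+NSM, with no overlap between the libraries of these groups for either gene. The share of FOSB was 4.82% ± 0.760 in DMSO and 17.1% ± 2.46 in DSF+NSM, and that of FOSL2 was 19.95% ± 2.26 and 5.30% ± 1.71. In the JUN family, JUND held 61.2% ± 0.622 in DMSO and 64.6% ± 0.971 in DSF+NSM, JUNB 36.4% ± 0.611 and 22.4% ± 3.18, and JUN 2.47% ± 0.252 and 13.0% ± 2.27. After NSM, JUN held 2.09% ± 0.352, which overlapped the DMSO libraries. After DSF it held 8.48% ± 1.25, above all DMSO libraries. The sum per kilobase was 204 ± 2.55 in DMSO and 2578 ± 676 in DSF+NSM for the FOS family, 12.6 times as much, and 2602 ± 83.8 and 23716 ± 2986 for the JUN family, 9.11 times as much. An exact permutation test of 3 against 3 libraries cannot fall below 0.10, so these shares are given as a description.

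**Figure D4:**
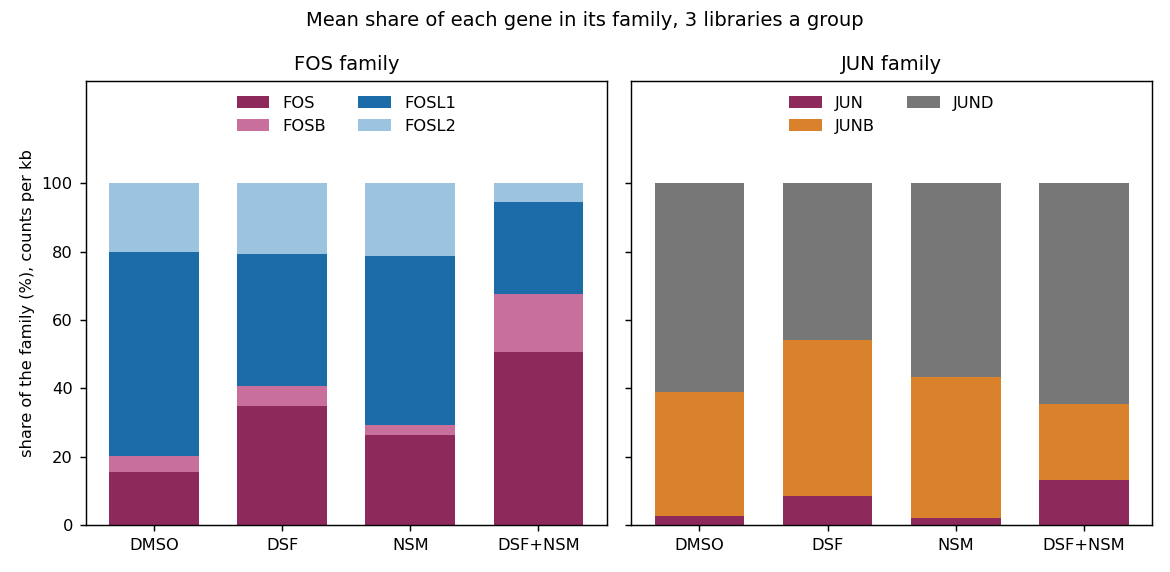
Mean share (%) of each gene in the summed normalized count per kilobase of its family, for 3 libraries in each of 4 groups. FOS grows from 15.4% in DMSO to 50.5% in DSF+NSM as FOSL1 shrinks from 59.8% to 27.1%, and JUN grows from 2.47% to 13.0%.

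Most of the other genes of the early response were called higher too. Of 28 such genes, 21 were higher and none lower after DSF (median log2 fold change 1.42), 20 higher and 3 lower after NSM (1.46), and 26 higher and 1 lower after DSF+NSM (2.90). Of all genes tested, 5.95%, 23.7% and 24.5% were called lower in these comparisons, beside the 11.9%, 25.4% and 28.3% called higher. Their interaction was called above 0 for 8 and below it for 9 of the 28, beside 12.1% and 14% of all genes, with a median of −0.05. IER5, an early-response gene linked to heat shock factor activity, had means of 167 ± 17.5 in DMSO, 2051 ± 849 with DSF, 405 ± 60.4 with NSM and 25369 ± 5139 with both drugs (SD, n = 3). It rose by 3.51, 1.26 and 7.22 (adjusted p from limma 8.94e-06, 0.00312 and 2.78e-09). EGR3, a relative and target of EGR1, rose by 2.78 with DSF and 6.72 with both drugs (adjusted p from limma 0.00762 and 1.92e-06), and its difference of 1.46 for NSM was not called (adjusted p = 0.0571). PPP1R15A, the phosphatase subunit that dephosphorylates eIF2α, rose by 3.14, 4.58 and 6.10 (adjusted p from limma 4.22e-07, 2.10e-08 and 1.57e-10). The lower genes after NSM were CYR61 at −2.36, ID1 at −1.96 and ID2 at −1.11, all higher after DSF+NSM, and the lower gene after DSF+NSM was ZFP36L2 at −1.03. These 4 were chosen after their values were seen.

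Many of the inhibitors that normally end MAP kinase and EGR signalling were higher as well. Of 17 tested, 10 were higher after DSF (median 0.74), 13 after NSM (0.80) and 12 after DSF+NSM (1.60), where 1 was lower, DUSP7 at −1.10, named after its value was seen. These are read against 11.9%, 25.4% and 28.3% of all genes called higher. DUSP1, the nuclear MAP kinase phosphatase, rose by 2.57, 2.26 and 5.93 (adjusted p from limma 0.000125, 6.23e-05 and 2.07e-08). DUSP8, a phosphatase of JNK and p38, was listed at 0 to 0.756 in DMSO, 4.36 to 15.04 with DSF, 12.8 to 23.6 with NSM and 242 to 348 with both drugs, and no fold is given because DMSO held at most about 1 read per library. RGS2, a regulator of G protein signalling, had means of 73.9 ± 7.85 in DMSO and 3255 ± 908 in DSF+NSM (SD, n = 3), a rise of 5.40 (adjusted p = 5.71e-08 from limma). Its smaller rises of 1.03 with DSF and 0.82 with NSM (adjusted p from limma 0.0378 and 0.0425) were lost without any 1 DMSO library, among others. With equal sums, 10 of the 17 were higher and 5 lower after DSF+NSM, beside 11.4% and 56.2% of all genes.

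Among 17 bZIP partners of FOS, JUN and small MAF proteins, 9 were higher after DSF (median 0.59). After NSM 12 were higher and 1 lower (0.96), and after DSF+NSM 12 were higher and 1 lower (0.93). Of all genes tested, 11.9%, 25.4% and 28.3% were called higher in these comparisons, and 5.95%, 23.7% and 24.5% lower. ATF3, a stress-induced partner of JUN, rose by 2.77, 2.85 and 5.85 (adjusted p from limma 1.04e-05, 2.05e-06 and 2.78e-09). MAFG, a small MAF like MAFF, rose by 0.95, 1.59 and 2.42 (adjusted p from limma 0.00534, 2.90e-05 and 6.91e-07), from 1648 ± 42.3 in DMSO to 8850 ± 728 in DSF+NSM. The lower genes were BATF after NSM, at −0.54, and NFE2 after DSF+NSM, at −1.41, both named after their values were seen. With equal sums, 7 of the 17 were higher and 3 lower after DSF+NSM, beside 11.4% and 56.2% of all genes. Their median was then 0.15, against −0.74 for all genes.

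The kinases and promoter-bound activators that act upstream of FOS, JUN and EGR1 were called in both directions after DSF+NSM, as all genes were. Of 28 genes, 6 were higher and none lower after DSF (median 0.32), beside 11.9% and 5.95% of all genes. After NSM 14 were higher and 2 lower (0.47), beside 25.4% and 23.7%. After DSF+NSM 10 were higher and 8 lower (0.14), beside 28.3% and 24.5%. With equal sums, 2 were higher and 16 lower after DSF+NSM, where 11.4% and 56.2% of all genes were, with a median of −0.64 beside −0.74 for all genes. MAP2K6, a kinase upstream of p38, rose by 1.78 with NSM and 2.63 with both drugs (adjusted p from limma 0.000788 and 3.15e-05), and by 1.05 with DSF (0.0449), a call that was lost with equal sums (0.0685), among others. BRAF rose by 1.76 with NSM and 1.59 with both drugs (adjusted p from limma 2.12e-05 and 3.16e-05), and its difference of 0.41 with DSF was not called (0.171), but was without NSM replicate 3 (0.0177), among others. MAPK7, which encodes ERK5, rose by 0.98, 1.08 and 1.12 (adjusted p from limma 0.000824, 7.16e-05 and 4.06e-05), and its rise after DSF+NSM was 0.34 and not called with equal sums (adjusted p = 0.0678).

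Of 15 tested genes with well-known AP-1 sites, 12 were higher after DSF (median 1.43). After NSM 8 were higher and 1 lower (0.72), and after DSF+NSM 13 were higher (1.77). The shares of all genes called higher in these comparisons were 11.9%, 25.4% and 28.3%, and 23.7% were called lower after NSM. IL8, the neutrophil chemokine also called CXCL8, had means of 228 ± 8.55 in DMSO, 2310 ± 684 with DSF, 875 ± 286 with NSM and 14224 ± 4003 with both drugs (SD, n = 3). It rose by 3.29, 1.89 and 5.92 (adjusted p from limma 8.05e-06, 0.000108 and 7.77e-09). PTGS2, which encodes cyclooxygenase-2, rose by 1.45 with DSF and 4.33 with both drugs (adjusted p from limma 0.0199 and 1.60e-06), and its difference of 0.72 for NSM was not called (0.131). The rise of PTGS2 after DSF lost its call when DMSO replicate 2 or 3, or else DSF replicate 1 or 2, was left out (adjusted p from limma 0.0720 to 0.0979). IL1B, the inflammatory cytokine interleukin-1β, rose by 1.22 with DSF and 2.61 with both drugs (adjusted p from limma 0.000623 and 1.84e-07), with 0.05 for NSM (0.820). CCL2, the single lower gene after NSM at −1.02, was named after its value was seen. With equal sums 11 of the 15 were higher and 1 lower after DSF+NSM, beside 11.4% and 56.2% of all genes.

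**Figure D5:**
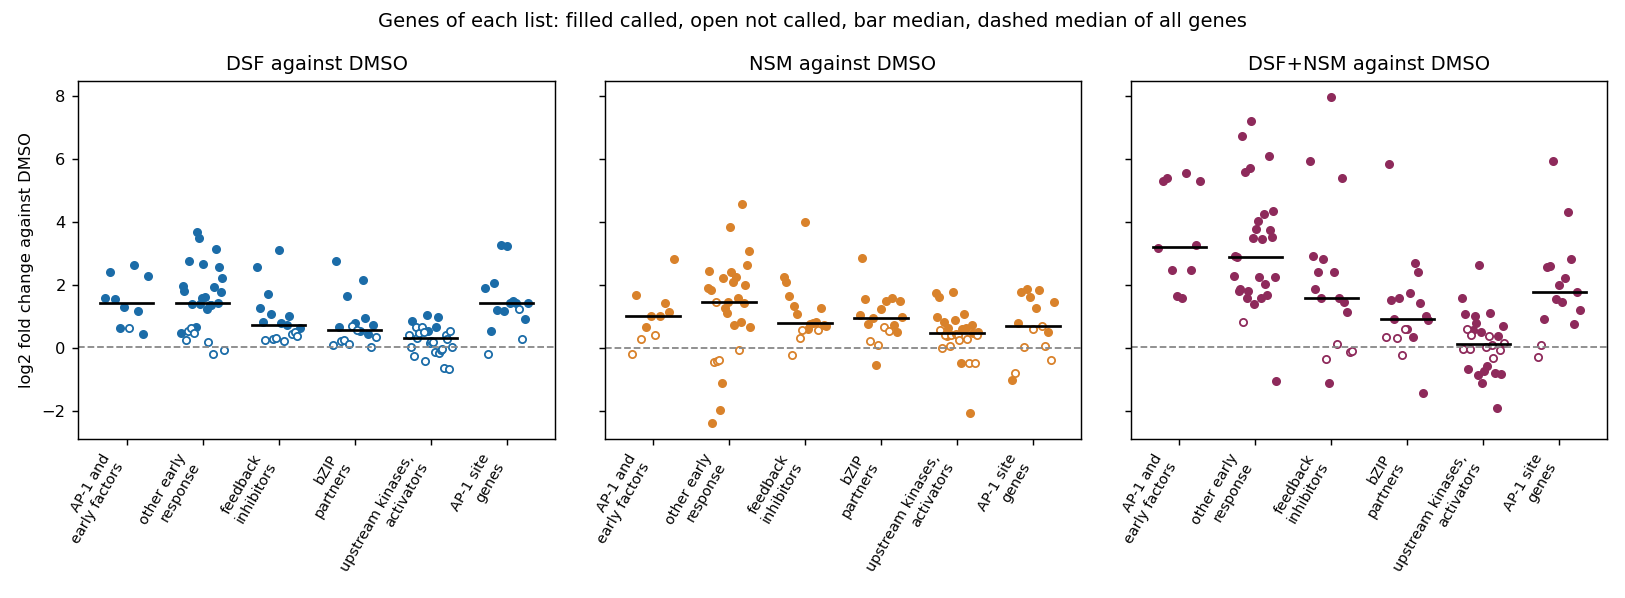
Log2 fold change against DMSO (y axis) of the 10 genes and of 5 lists of related genes (x axis), 1 panel for each treatment. Filled points were called, open points were not, black bars are list medians and the dashed line is the median of all genes tested; the medians after DSF+NSM run from 0.14 for upstream kinases and activators to 3.22 for the AP-1 and early factors.

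The genes whose pattern over the 12 libraries was most like that of FOS, JUN and EGR1 were sought among the 10794 genes tested with a mean normalized count of at least 50. Likeness was the root mean square difference of log2 values, each taken relative to its DMSO mean. For FOS these were RN7SK, a small nuclear noncoding RNA, at 0.37, JUN at 0.39 and CCL4L1, a chemokine gene with a near-identical copy whose counts are therefore uncertain, at 0.39. For JUN they were FOS at 0.39 and the histone genes HIST1H2BJ at 0.44 and HIST1H2BK at 0.47. For EGR1 they were PANX2 at 0.38, IL1B at 0.41 and TRIM26 at 0.43. The group means of RN7SK relative to DMSO were 2.28 with DSF, 1.43 with NSM and 5.04 with both drugs on the log2 scale, beside 2.43, 1.68 and 5.31 for FOS. Those of PANX2 were 2.11, −0.12 and 3.23, beside 1.58, −0.18 and 3.19 for EGR1. The libraries of a pair are shared, and these values are a description. RNA was selected by its poly(A) tail, and the effect of that step on the counts of RN7SK and the histone genes was not tested.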

How the data were processed

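Poly(A) RNA of SHI-1 cells was sequenced in 12 libraries, 3 independent experiments for each of 4 groups. The authors demultiplexed the reads with bcl2fastq 2.19, trimmed them with trimmomatic, and used STAR and Salmon with NCBI GRCh38 for quantification. The submitters' processing notes name Bowtie2, Picard and featureCounts in place of STAR and Salmon. The authors used DESeq2 for their own comparisons. For each library the authors deposited a signal, a normalized count per gene, whose header names 24 libraries, and 12 of them were used here. Only 32.5% to 33.0% of a library's nonzero values were multiples of the library's smallest step, so reads were not recovered, no count model was fitted, and the depths given are estimates.

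Values were transformed as log2(value + 1), which understates the change of low genes. A gene was tested where 3 or more libraries reached a value of 10. The test was limma-trend with robust empirical Bayes (limma 3.58.1, R 4.3.3), fitted once to all 12 libraries without a replicate block, with Benjamini-Hochberg adjustment over 13502 genes and a threshold of 0.05. Other steps used Python 3.11.15, numpy 2.4.6, pandas 2.3.3 and scipy 1.17.1, and figures matplotlib 3.10.9. Positions and transcript lengths came from GENCODE 44, and promoter sequences from RefSeq. The members and the lists of related genes were chosen with earlier results of these data known. From each list the 3 genes that changed most with both drugs were named, if called and with a mean of 50 or more, and for FOS, JUN and EGR1 the 3 genes with the smallest root mean square difference in pattern. A gene that this rule named among the bZIP partners is not reported here. The sources used here do not state whether libraries of the same replicate number came from the same experiment, and the main fit did not pair them. The alternatives were equal sums, the median of ratios, a trimmed mean, pseudocounts of 0.1 and 10, a looser filter (none) and a stricter one (10 in all libraries), fits without the groups not compared, the replicate number as a block, library weights, and each library left out in turn.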

Additional observations from a re-analysis of the deposited data

Results flagged for a closer look

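The effect of 1 drug differed with the presence of the other, by the interaction term of limma over all 12 libraries, for 7 of the 10 genes. The log2 interaction was 3.56 for FOSB, 1.92 for JUN, 1.79 for EGR1, 1.67 for JUND, 1.20 for FOS and 1.16 for FOSL1, and −0.69 for FOSL2. Those of FOSB, JUN, EGR1, JUND and FOSL1 were called under all 21 alternatives run for the interaction, that of FOS in 13 and that of FOSL2 in 17. With equal sums they were 3.14, 1.498, 1.37, 1.25, 0.78 (not called), 0.74 and −1.10 in the same order, beside a median of −0.40 over all genes.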

How the results depend on the processing

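The number of members called in each comparison stayed within 1.5 times its value in every alternative. Of 1310 single checks of a member's change, 1253 stayed called or stayed not called, 14 gained a call and 43 lost it. For the other named genes these numbers were 984, 946, 9 and 29. None turned in direction where it was called, but a difference that was not called could change sign. FOSL2 for DSF+NSM against DSF, for example, was 0.34 in the main fit and −0.34 with equal sums. The share of all genes called, against which member counts are read, moved more. It was 17.8% for DSF against DMSO, and 54.0% with only these groups in the fit, 60.5% with library weights, and 6.77% (DSF replicate 2) to 41.2% (NSM replicate 3) with each library left out in turn. With library weights it was 82.3% for NSM against DMSO (49.1% before), 67.5% for DSF+NSM against DSF (43.1%), 72.4% for DSF+NSM against NSM (38.6%) and 66.2% for the interaction (26.1%). With only the groups compared it was 18.3% for DSF+NSM against NSM, and leaving out single libraries gave 19.3% to 45.8% for the interaction, the highest without NSM replicate 3. The cause was not tested. Same-numbered libraries of different groups hardly deviated together: of 18 pairs, 2 had a correlation over 0.1 (range −0.0644 to 0.278), and 6 of 12 libraries correlated best with their own number. With the replicate number as a block, FOSL1 for DSF lost its call (0.64, adjusted p = 0.0570 from limma), and no other member's call changed. The lowest member value, of FOSB in DMSO, stood at about 31.4 reads, and depth limits FOSB, EGR1 and MAFF in DMSO most.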
